A study of Mus musculus with 6 samples.

Results

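The genes described here are the 4 receptors of the epidermal growth factor (EGF) family, Egfr, Erbb2, Erbb3 and Erbb4, and 6 of their ligands, Egf, Hbegf, Areg, Ereg, Tgfa and Btc. These 10 of the 49671 genes in the count files were chosen by symbol, and each matched 1 Ensembl gene. They were measured by RNA sequencing in mouse induced renal epithelial cells (iRECs), which are made from fibroblasts with transcription factors of the kidney tubule and were here grown to confluence in medium with serum. All 6 cultures carried the floxed Pkd1 allele of strain B6.129S4-Pkd1tm2Ggg/J. There were 3 clones (4, 7 and 21). Each gave a Cre-transduced culture (labelled Pkd1 knockout, Pkd1 -/-) and a Flp-transduced culture (labelled Pkd1 wild type, Pkd1 fl/fl), so each group had 3 libraries, 1 from each clone. Pkd1 encodes polycystin-1, which is lost or reduced in polycystic kidney disease. The labels do not say whether the clones came from separate animals, so a p-value here measures the spread between these clone pairs, which may be technical. Neither a culture without any recombinase nor a Cre culture without the floxed allele was analysed here. Without the latter, Cre activity and loss of Pkd1 cannot be told apart.

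Total gene counts ranged from 25196120 to 46918341, and a count of 0 allowed up to 0.0632 to 0.121 CPM (counts scaled to library size with TMM factors), for counting error only. Pkd1 itself was lower in Cre in every clone, with log2 ratios of -0.45, -1.12 and -0.50 in clones 4, 7 and 21, and a log2 fold change over the clones of -0.69 (SE 0.16, edgeR adjusted p = 0.6065). The authors' deposited table gives Pkd1 a DESeq2 adjusted p of 0.03702. Reads outside the deleted exons still count for this gene. As a whole library, Flp clone 7 correlated more closely with Cre clone 4 (r = 0.984) than with Cre clone 7 (r = 0.970), across genes that are not independent replicates. In clone 21, Flp was closer to Cre clone 4 (r = 0.9786) and Cre closer to Cre clone 7 (r = 0.9779) than the pair were to each other (r = 0.9773). Only for clone 4 was a Flp library closest to the Cre library of its own clone. By these correlations, the libraries of clones 7 and 21 were each closest to a library of another clone. So was Cre clone 4, which was closer to Flp clone 7 (r = 0.984) than to Flp clone 4 (r = 0.980). Taken as deviations from their group means, Cre and Flp correlated at 0.20, 0.11 and 0.30 for clones 4, 7 and 21. Whether the clone labels are right was not tested, and every clone ratio and the clone block below rest on those labels. Without clone 7 the log2 fold change, Cre over Flp, was 0.11 for Egfr, -0.03 for Erbb2, -0.46 for Erbb3, 0.39 for Egf, -0.07 for Hbegf, 1.68 for Ereg, 0.38 for Tgfa and -0.44 for Btc, beside the values over all clones given below. Hnf4a is a reprogramming factor, so its level is not independent evidence of tubule identity. It averaged 1255 ± 57.8 CPM over the Cre cultures and 1284 ± 89.9 CPM over the Flp cultures (SD, n = 3). The keratin Krt18 had the highest level per length of the 20 tubule and epithelial markers. Of these markers, Aqp2 and Calb1, which mark the collecting duct and distal tubule, were at 0 in every library. Of 12 fibroblast markers, Thy1 was at 0 and Col1a2, Dcn and Lum had at most 3 counts in any library, while fibronectin (Fn1) was abundant, at 814 ± 132 CPM over the Cre cultures and 696 ± 221 CPM over the Flp cultures (SD, n = 3). The fibroblast marker with the smallest p, the collagen gene Col3a1, had 2 to 27 counts in any library. Of 12 endothelial, blood, nerve and podocyte markers, Cdh5, Kdr and Adgre1 were at 0, and Cd68 was the most abundant per length, with 129 to 280 counts. Because these are bulk samples, fewer cells with a transcript and less transcript per cell cannot be told apart.

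EGF-family receptors are tyrosine kinases of the cell surface that act as pairs. Egfr binds EGF, TGF-alpha, amphiregulin, betacellulin, epiregulin and HB-EGF. Erbb2 has no known soluble ligand and serves as a partner for the others, Erbb3 has a weak kinase and binds neuregulins, and Erbb4 binds neuregulins as well as some of the EGF-type ligands. The ligands are made as membrane-bound precursors that proteases such as ADAM17 release, and bound receptors signal through RAS and ERK and through PI3 kinase. In kidney tubules Egfr signalling is known for its part in epithelial growth and repair, and it has long been studied in cyst growth. The Egf gene itself is known as a product of the thick ascending limb and distal tubule.

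The upstream sequences of 3 of the genes are shown because the values below turn on them: Egfr was the most abundant transcript of the family per length, Tgfa had the smallest p-value of the members between Cre and Flp, and Areg had the widest range over the libraries. Each run gives the 250 bases before the RefSeq transcription start (GRCm38.p6), 5′ to 3′ on the gene's strand. Capitals mark matches, on either strand, to the GC box GGGCGG, the cAMP response element TGACGTCA, the AP-1 motif TGANTCA and the TATA box TATAAA, none of which overlap in these windows.
Egfr, chr11:16751953-16752202, plus strand: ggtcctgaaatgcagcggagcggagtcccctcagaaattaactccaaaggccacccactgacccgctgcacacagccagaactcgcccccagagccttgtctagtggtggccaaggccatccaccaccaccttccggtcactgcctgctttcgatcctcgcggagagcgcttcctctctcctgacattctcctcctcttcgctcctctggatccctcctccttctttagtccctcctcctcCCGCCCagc
Tgfa, chr6:86194972-86195221, plus strand: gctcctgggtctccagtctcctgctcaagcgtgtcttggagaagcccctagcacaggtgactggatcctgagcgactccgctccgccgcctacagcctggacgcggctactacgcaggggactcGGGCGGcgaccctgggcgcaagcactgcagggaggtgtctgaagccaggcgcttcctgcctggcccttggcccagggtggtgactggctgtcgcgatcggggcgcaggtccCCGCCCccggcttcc
Areg, chr5:91139349-91139598, plus strand: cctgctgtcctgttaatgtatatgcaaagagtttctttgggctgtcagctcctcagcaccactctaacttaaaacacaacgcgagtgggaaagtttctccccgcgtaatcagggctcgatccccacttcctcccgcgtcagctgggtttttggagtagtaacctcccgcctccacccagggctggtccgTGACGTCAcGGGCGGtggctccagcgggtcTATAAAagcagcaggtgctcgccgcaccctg
The Areg window held 1 cAMP response element, 1 GC box and 1 TATA box. The Egfr window held 1 GC box and the Tgfa window 2. Over 32851 windows of this length in the same table, 1.55% held the cAMP response element, 32.7% the GC box, 12.4% the TATA box and 6.75% the AP-1 motif, so the first of these was uncommon and the second was not. The windows of Egfr, Tgfa and Areg held 11, 19 and 15 CpG dinucleotides, against a median of 6 over all windows. A match describes the letters only and was not tested as a binding site.

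The receptor transcripts were led by Egfr and Erbb3, and Erbb4 was not detected. Egfr (ENSMUSG00000020122, chr11:16752203-16918158, GRCm38) was at 65.2 ± 4.81 CPM per kilobase of exon over the 6 libraries (SD), Erbb3 (chr10:128567523-128589652) at 49.8 ± 9.84 and Erbb2 (chr11:98412470-98437716) at 18.8 ± 3.08. Egfr lay above Erbb3 in 5 of 6 libraries, and Flp clone 21 was the exception. Erbb4 (chr1:68032186-69108059) had 0 counts in every library, which allows a level up to the limits given above. In the summed level of the receptors per length, Egfr made up 44.6% to 59.5%, Erbb3 27.4% to 45.1% and Erbb2 10.3% to 16.95%. Egfr had the narrowest range of any detected member, with the highest library 1.21 times the lowest.

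Among the ligands, Hbegf and Tgfa made up nearly all of the transcript. Hbegf (chr18:36504927-36515805), which encodes HB-EGF, was at 21.5 ± 4.42 CPM per kilobase (SD, n = 6), and Tgfa (chr6:86195223-86275719), which encodes TGF-alpha, at 5.21 ± 1.51. Hbegf made up 74.3% to 84.6% of the summed ligand level per length and Tgfa 13.7% to 23.0%. The other ligands were low on the same scale: Egf (chr3:129677565-129755316) at 0.413 ± 0.0757, Areg (chr5:91139599-91148432), the gene of amphiregulin, at 0.232 ± 0.288, Ereg (chr5:91074622-91093646), the gene of epiregulin, at 0.120 ± 0.0657, and Btc (chr5:91357261-91402994), the gene of betacellulin, at 0.0645 ± 0.0220. Without clone 7 the mean of Areg was 0.126. With the longest transcript as the length, Hbegf was at 35.9 and Egf at 0.979, and the order of the genes was the same. In the order of levels, the ranges over the 6 libraries overlapped between Egfr and Erbb3, between Hbegf and Erbb2, and between each neighbouring pair from Egf down to Btc, so these neighbours were not separated. Erbb3 and Hbegf, Erbb2 and Tgfa, and Tgfa and Egf did not overlap. Umod and Slc12a1, which mark the tubule segment known to make Egf, were also low, with at most 161 and 5 counts in any library.

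**Figure D1:**
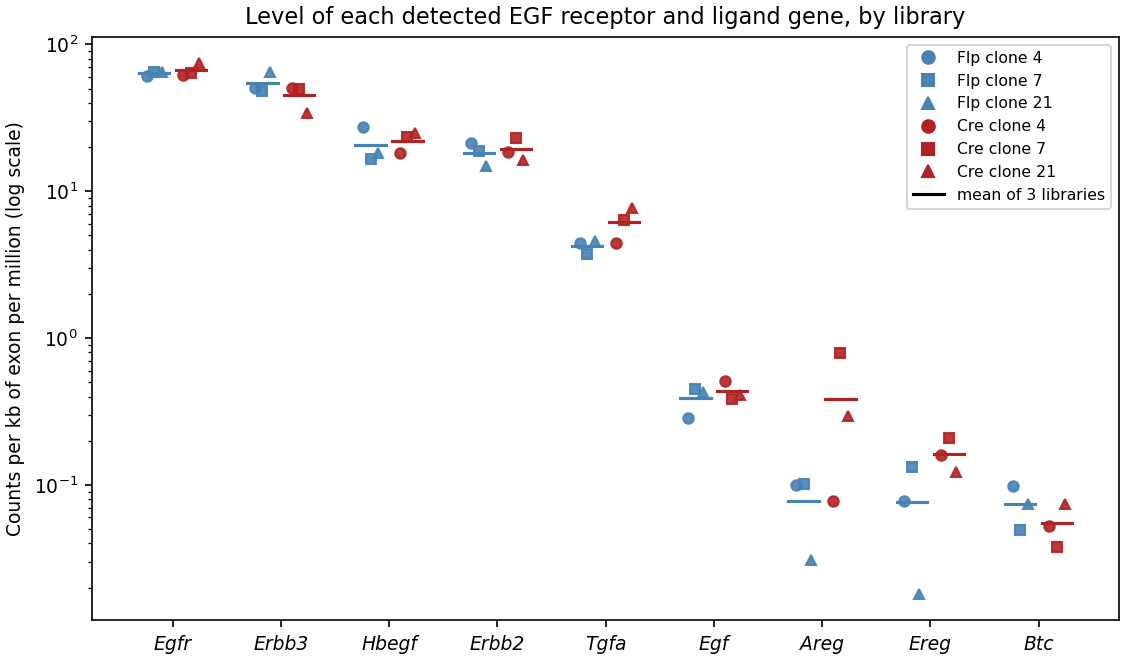
Level of each detected member in each library, in CPM per kilobase of exon on a log axis; symbols are clones, colours are groups and bars are means of 3 libraries. Egfr, Erbb3, Hbegf, Erbb2 and Tgfa sit at means from 5.21 to 65.2, the other ligands below 1, and Erbb4, at 0, is not drawn.

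**Figure D2:**
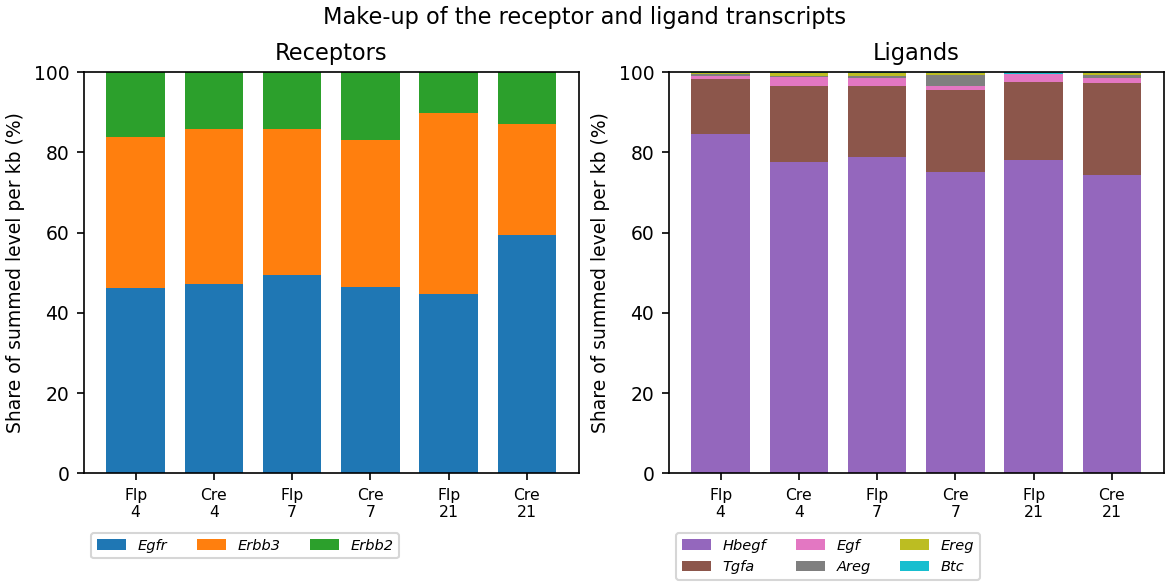
Share of each gene in the summed level per kilobase of the receptors (left) and of the ligands (right) in each library. Cre clone 21 has the largest Egfr share, 59.5%, and Hbegf makes up 74.3% or more of the ligand sum in every library.

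The comparison of Cre with Flp, each clone serving as its own control, asked whether any of these genes differed with the knockout label. Of the 10 members, 8 passed the filter on low counts, and 0 of the 8 passed an adjusted p of 0.05 by edgeR's quasi-likelihood test with clone as a block, where 0.00% of the 15355 genes tested did. The members' adjusted p ranged from 0.6961 to 0.9752. At an unadjusted p under 0.05 there was 1 member, Tgfa, higher in Cre, where 6.82% of all genes were counted (3.54% of all genes higher in Cre and 3.28% lower). DESeq2 with the clone block called 0 members, where it called 1.47% of all genes, and so did limma-voom, which called 0 genes in all. On simulated counts with known differences, and with spread as fitted only, DESeq2 made 46 false calls between Cre and Flp and edgeR 10. With so few residual degrees of freedom, a miss does not show that levels were alike. Differences of several standard errors could go unseen: Pkd1, at -0.69 (SE 0.16), was not called by edgeR either.

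Egfr was close to level between the groups. It was at 699.5, 720.4 and 843.6 CPM in Cre of clones 4, 7 and 21 and at 694.8, 738.2 and 732.6 CPM in Flp. Only Cre of clone 21 stood above the rest, and the groups overlapped. Over the clones the log2 fold change, Cre over Flp, was 0.06 (SE 0.11, edgeR adjusted p = 0.9727). Without clone 21 it was -0.02.

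Erbb2, the ligandless partner, was at 97.0, 120.8 and 84.8 CPM in Cre of clones 4, 7 and 21 and at 111.1, 97.4 and 77.5 CPM in Flp. Cre was the lower in clone 4 and the higher in clones 7 and 21, and the log2 fold change was 0.08 (SE 0.13, edgeR adjusted p = 0.9593). Among the members, Erbb2 had the smallest p for a difference between clones in the same edgeR fit (unadjusted p = 0.08025), with both libraries of clone 21 below those of clones 4 and 7.

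Erbb3, the neuregulin receptor with little kinase activity, stayed within a narrow range except in clone 21. It was at 305.6, 300.8 and 206.6 CPM in Cre of clones 4, 7 and 21 and at 303.0, 289.4 and 393.0 CPM in Flp. The lowest and the highest library were thus the Cre and the Flp culture of clone 21, and the clone ratios were 0.01, 0.06 and -0.93 on the log2 scale. Over the clones Erbb3 had a log2 fold change of -0.28 (SE 0.21, edgeR adjusted p = 0.8956), and without clone 21 it was 0.03. For the 50 tested genes nearest to Erbb3 the median ratio in clone 21 was -0.06 on the log2 scale. As Egfr was highest in that same Cre culture, the receptor make-up of clone 21 went from 45.1% Erbb3 and 44.6% Egfr in Flp to 27.4% and 59.5% in Cre, while clones 4 and 7 stayed closer, with Egfr at 47.1% and 46.5% in Cre and at 46.1% and 49.4% in Flp.

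Tgfa had the smallest p of the members, with a higher level in Cre of 2 clones. It was at 28.8, 41.2 and 50.1 CPM in Cre of clones 4, 7 and 21 and at 28.9, 24.2 and 29.7 CPM in Flp. The 3 Flp libraries and Cre of clone 4 lay together, and Cre of clones 7 and 21 lay above all of them. The clone ratios were -0.01 (95% counting interval -0.14 to 0.13), 0.77 (0.65 to 0.89) and 0.75 (0.64 to 0.87) on the log2 scale. For Tgfa the log2 fold change was 0.51 (SE 0.19), with an unadjusted p of 0.04079 and an edgeR adjusted p of 0.6961. It was positive in each of the 11 alternative fits, from 0.38 without clone 7 or clone 21 to 0.76 without clone 4, with an adjusted p by edgeR, limma or DESeq2 of 0.2059 at the lowest. The authors' deposited table lists Tgfa at a log2 fold change of 0.40 (SE 0.17) with a DESeq2 adjusted p of 0.3515. The 50 nearest tested genes had medians of -0.05 and -0.01 in clones 7 and 21.

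Hbegf, the most abundant ligand transcript, went in opposite directions in different clones. It was at 87.5, 113.8 and 120.4 CPM in Cre of clones 4, 7 and 21 and at 133.0, 80.6 and 88.0 CPM in Flp. Flp of clone 4 was the highest library of all, and the groups overlapped. The clone ratios were -0.60, 0.50 and 0.45 on the log2 scale, so Cre was the lower in clone 4 and the higher in clones 7 and 21. For Hbegf the log2 fold change was 0.12 (SE 0.24, edgeR adjusted p = 0.9752). It was 0.47 without clone 4, -0.07 without clone 7 and -0.06 without clone 21.

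Areg and Ereg rested on few reads. Areg had 4, 28 and 17 counts in Cre of clones 4, 7 and 21 and 3, 5 and 1 in Flp, and did not pass the filter on low counts. The clone ratios of Areg were -0.23 (95% counting interval -2.92 to 2.41), 2.49 (1.56 to 4.68) and 2.13 (0.58 to 8.64) on the log2 scale. Cre of clones 7 and 21 stood above all other libraries, beyond counting error in each clone, whereas clone 4 showed no difference that its depth could resolve. In edgeR without the filter the log2 fold change of Areg was 2.04 (SE 0.91, adjusted p = 0.7151), where 0.79% of all genes were called. Ereg had 28, 25 and 24 counts in Cre and 8, 22 and 2 in Flp, with clone ratios of 0.92, 0.60 and 2.09, of which the counting interval left out 0 in clone 21 only (0.74 to 5.88). Ereg was the tested member with Cre above Flp in every clone, where 14.6% of all genes were, at a log2 fold change of 1.26 (SE 0.55, edgeR adjusted p = 0.7496).

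Egf and Btc showed no shared direction that their depth could resolve. Egf was at 5.79, 4.35 and 4.65 CPM in Cre of clones 4, 7 and 21 and at 3.23, 5.09 and 4.84 CPM in Flp, and only the clone 4 ratio of 0.83 (95% counting interval 0.47 to 1.23) lay beyond counting error. Its log2 fold change was 0.18 (SE 0.32, edgeR adjusted p = 0.9709) and -0.14 without clone 4. Btc had 5 to 16 counts per library, was the tested member with Cre below Flp in every clone, where 13.1% of all genes were, though level to 2 decimals in clone 21, and had a log2 fold change of -0.42 (SE 0.52, edgeR adjusted p = 0.9481). Areg, Ereg and Btc lie beside the further ligand gene Epgn (epigen) within 376 kb of chr5:91027464-91402994. Epgn had at most 6 counts in any library, so none of these 4 neighbours had more than 28 counts in any library. Exons of Egf, Ereg, Tgfa and Erbb2 overlap those of another annotated gene by 607, 141, 118 and 9 bases, and without a known strand setting of the counting the counts of Egf and Ereg in particular are uncertain.

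**Figure D3:**
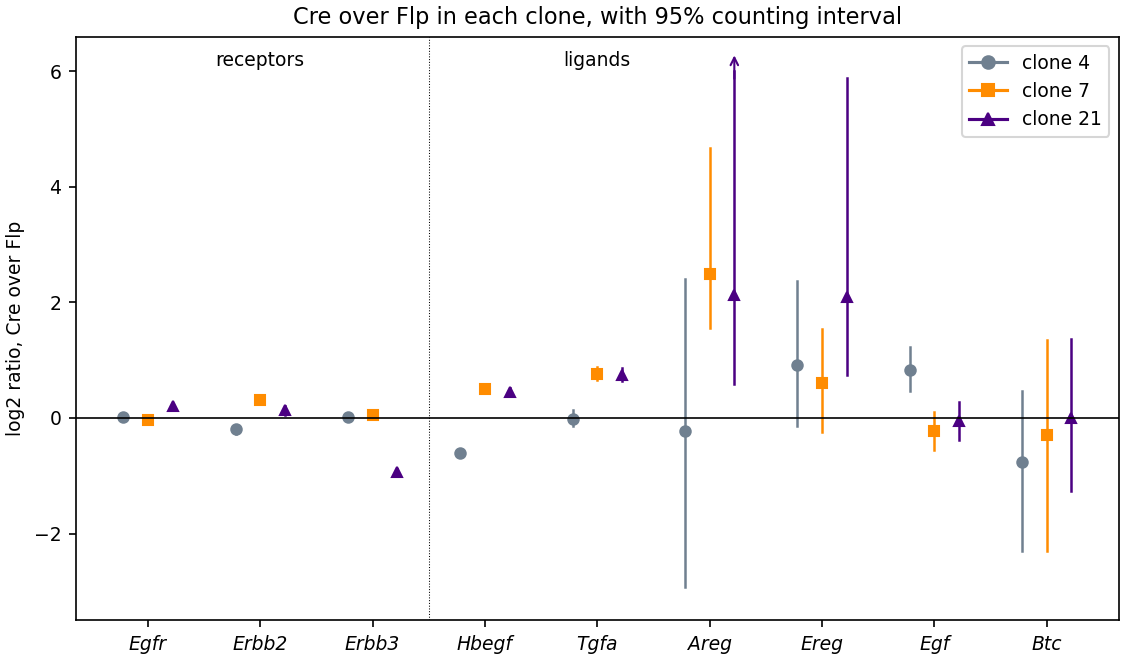
Log2 ratio of Cre over Flp in each clone for the 9 detected members; vertical lines are 95% counting intervals, and the arrow marks the Areg interval of clone 21, which runs to 8.64. Hbegf, Tgfa and Areg sit above 0 in clones 7 and 21 and at or below 0 in clone 4, and Erbb3 departs from 0 in clone 21, at -0.93.

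Of the 8 members tested, 3 (Erbb2, Hbegf and Tgfa) were higher in Cre beyond counting error in both clone 7 and clone 21, where 14.7% of all genes were. This count was made after the values had been seen, and it leaves out the variation between cultures. By the same measure, 4 of the 8 (Egfr, Erbb2, Erbb3 and Hbegf) moved in opposite directions in at least 2 clones, where 35.9% of all genes did. None of the 8 had Cre and Flp libraries that did not overlap, where 8.14% of all genes had. By the test for differences between clones, edgeR called 0 of 8 members, where it called 0.01% of all genes, and 0 members had an unadjusted p under 0.05, where 8.00% of all genes did. DESeq2 likewise called 0 members between clones, where it called 2.92% of all genes. In clone 7, where Hbegf and Tgfa stood higher in Cre, some markers differed too. The log2 ratio of Krt8 was 1.33, that of Epcam 1.03 and that of the fibroblast marker Zeb1 -1.34. These were picked after their values were seen, and the markers did not all go this way. The fibroblast marker Fn1 was higher in Cre of that clone, at 0.31. The 17 tested tubule and epithelial markers had a median of 0.06 in that clone. Among them, Cldn1 stood at -1.47 over the clones and at -0.91 without clone 7. The summed level of the fibroblast markers per length ranged from 122 to 134 in Cre and from 96.7 to 157 in Flp, with log2 ratio medians of -0.47, -0.44 and 0.42 in clones 4, 7 and 21. Their part in the ligand values was not tested.

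The authors' deposited table held 0 of the members at an adjusted p under 0.05 by DESeq2, where 1.37% of its genes with an adjusted p were. It lists log2 fold changes of 0.04 for Egfr, 0.07 for Erbb2, -0.23 for Erbb3, 0.10 for Egf, 0.09 for Hbegf and 0.19 for Ereg, and lists Erbb4 with a mean of 0. Those fold changes come from another fit, and their sizes may not be on the scale of the edgeR values. For Ereg the authors' value of 0.19 (SE 0.16) stood against 1.26 (SE 0.55) by edgeR. Why they differ was not tested. The mean normalised count in the authors' deposited table was 20794 for Egfr, 7096 for Erbb3 and 100.1 for Egf, where the count files gave means of 25052, 10169.7 and 158. For Erbb2 the authors' deposited table had 3329.5 and the count files 3328.6, and for Hbegf 3524.0 and 3524.3. Of the genes described below, Nrg1 had 674.7 in the authors' deposited table and 1487 from the count files, Socs4 653 and 1810, and Rhbdl2 56.0 and 88.5. In the same order, Ccnd1 had 26664.5 and 19282, Cd9 9018 and 8031, Rab7 6471 and 5894, and Dusp4 4504 and 4975. The levels of these genes, Erbb2 and Hbegf aside, thus depended on the source, and why was not tested.

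The other ligands of the family were the neuregulins. Of 5 further ligands, Nrg1, Nrg2 and Nrg4 passed the filter, Epgn did not, and Nrg3 had 0 counts. Nrg2, a ligand of Erbb3 and Erbb4, was at 4.11, 0.274 and 0.695 CPM in Cre of clones 4, 7 and 21 and at 11.1, 12.1 and 6.75 CPM in Flp. All 3 Cre libraries lay below all 3 Flp libraries, which held for 1 of the 3 tested genes of this list, where 8.14% of all genes had groups that did not overlap. The clone ratios were -1.42, -5.20 and -3.18 on the log2 scale. The log2 fold change of Nrg2 was -3.19 (SE 0.77), which did not pass in edgeR with the filter (adjusted p = 0.6065) and passed with DESeq2 (adjusted p = 6.352e-05), with unfiltered edgeR (0.001157) and in the authors' deposited table (0.01456). Nrg2 stayed lower in Cre in all 11 alternative fits, from -2.30 without clone 7 to -4.23 without clone 4, with an adjusted p of up to 1 by edgeR. Nrg1, the most abundant neuregulin at 4.23 CPM per kilobase, averaged 46.5 ± 1.85 CPM over the Cre cultures and 41.2 ± 6.77 CPM over the Flp cultures (SD, n = 3). For Nrg1 the log2 fold change was 0.19 (SE 0.13, edgeR adjusted p = 0.8825).

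Genes that release and carry the ligands were expressed in every library. Of 10 in the list, 10 were tested and 0 called by edgeR, where 0.00% of all genes were. The median log2 fold change was -0.07, against 0.00 over all genes. Only 1 gene had an unadjusted p under 0.05, where 6.82% of all genes did. That gene was Rhbdl2, a rhomboid protease able to cleave EGF-type precursors, at 1.77, 0.411 and 1.68 CPM in Cre of clones 4, 7 and 21 and at 4.32, 3.45 and 4.01 CPM in Flp. Its Cre libraries all lay below its Flp libraries. In this list 2 of the 10 genes had groups that did not overlap, where 8.14% of all genes had. For Rhbdl2 the log2 fold change was -1.79 (SE 0.46), with an adjusted p of 0.6172 in edgeR, 0.04861 in DESeq2, 0.03646 in unfiltered edgeR and up to 1 over the alternatives; without clone 7 it was -1.26. The sheddase Adam17 averaged 96.9 ± 4.63 CPM over the Cre cultures and 93.5 ± 5.26 CPM over the Flp cultures (SD, n = 3). Adam17 had a log2 fold change of 0.05 (SE 0.11, edgeR adjusted p = 0.9753). The tetraspanin Cd9 had the highest level per length of this list, and its clone ratios of -0.60, 0.56 and -0.55 were not of one direction.

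The list of adaptors and kinases below the receptors held 30 genes. All 30 were tested and 0 were called by edgeR, where 0.00% of all genes were. None had an unadjusted p under 0.05, where 6.82% of all genes did. The median log2 fold change was -0.04, with 10 members above 0 and 20 below. Mapk3, the ERK1 kinase, had the highest level per length and a log2 fold change of -0.05 (SE 0.15), and Nras, with the smallest p of the list, stood at 0.20 (SE 0.10, edgeR adjusted p = 0.8251). Stat5a, named after its values were seen, was at 62.0 CPM in Cre of clone 4 and between 11.4 and 15.5 CPM in the other 5 libraries. With that single high library its log2 fold change was 0.63 (SE 0.45, edgeR adjusted p = 0.8870).

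Genes that dampen the receptors gave 0 edgeR calls among 20 tested, where 0.00% of all genes were called. Their median was 0.01. An unadjusted p under 0.05 was reached by 2, both higher in Cre, where 3.54% of all genes were. Of these, Socs4 had clone ratios of 0.19, 0.73 and 0.94. It lies on chromosome 14, and its 50 nearest tested genes had medians of 0.09, 0.79 and 0.74. The part of this neighbourhood in the Socs4 values was not tested. The other was the phosphatase gene Ptpn12, with clone ratios of 0.26, 0.30 and 0.22. Its log2 fold change was 0.26 (SE 0.10, edgeR adjusted p = 0.6864), and its neighbours had medians of at most 0.06. Errfi1, whose product Mig6 binds and blocks the Egfr kinase and whose transcript is induced by EGF, averaged 102.8 ± 6.40 CPM over the Cre cultures and 102.6 ± 5.60 CPM over the Flp cultures (SD, n = 3). Errfi1 had a log2 fold change of 0.00 (SE 0.10). Rab7, of the late endosome, had the highest level per length and also stood at 0.00 (SE 0.10).

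Downstream of the receptors, 13 feedback inhibitors of ERK were listed, of which Spry3 matched no gene and 12 were tested. None was called by edgeR, where 0.00% of all genes were. At an unadjusted p under 0.05 there was 1 higher, Spry2, and 1 lower, Dusp4, where 3.54% and 3.28% of all genes were. The list median was 0.11. Spry2 was at 4.61, 12.5 and 10.9 CPM in Cre of clones 4, 7 and 21 and at 3.71, 4.92 and 3.83 CPM in Flp, but it too lies on chromosome 14, where its 50 nearest tested genes had medians of 0.74 and 0.68 in clones 7 and 21. Dusp4, a nuclear ERK phosphatase and the most abundant of the list per length, stood at -0.38 (SE 0.13, edgeR adjusted p = 0.6610). Dusp6, a cytoplasmic ERK phosphatase and a common readout of ERK activity, had clone ratios of -0.12, 1.13 and 0.59 and a log2 fold change of 0.53 (SE 0.24, edgeR adjusted p = 0.7594). The medians of the list were -0.06, 0.11 and 0.29 in clones 4, 7 and 21.

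Of 24 transcriptional targets of EGF and ERK, 24 were tested and 0 called by edgeR, where 0.00% of all genes were. An unadjusted p under 0.05 was reached by 2, Egr1 and Egr2, both higher in Cre, where 3.54% of all genes were. Egr1, an immediate early transcription factor, was at 236, 388 and 320 CPM in Cre of clones 4, 7 and 21 and at 228, 168 and 194 CPM in Flp. Its Cre libraries all lay above its Flp libraries, though by little in clone 4, where the ratio was 0.05. Of the 24 targets, 4 had groups that did not overlap, where 8.14% of all genes had. Those were Egr1, Egr3 and Lif, higher in Cre, and Etv1, lower in Cre. The log2 fold change of Egr1 was 0.66 (SE 0.22, edgeR adjusted p = 0.6674), and that of Egr2, with clone ratios of 0.72, 1.68 and 1.34, was 1.30 (SE 0.34, edgeR adjusted p = 0.6192). None of the targets was lower in Cre at an unadjusted p under 0.05, where 3.28% of all genes were. In edgeR's test for differences between clones, 7 of the 24 had an unadjusted p under 0.05, where 8.00% of all genes did. Ier3 had clone ratios of -0.29, -0.13 and -0.97 and a log2 fold change of -0.46 (SE 0.20, edgeR adjusted p = 0.7342). Etv4 had clone ratios of -0.38, -0.05 and -0.83 and a log2 fold change of -0.42 (SE 0.19, edgeR adjusted p = 0.7496). Ccnd1, the cyclin D1 gene and the most abundant of the list per length, had ratios of -0.18, -0.74 and 0.37. The list's median log2 fold change was 0.07, with 14 members above 0 and 10 below, and its medians were -0.17, 0.19 and 0.01 in clones 4, 7 and 21. Egr1, Egr3, Lif, Etv1, Dusp6, Ptpn12, Ier3, Etv4, Adam17 and Errfi1, and of the markers Hnf4a, Krt8, Epcam, Zeb1, Umod, Slc12a1 and those at or near 0, were named after their values were seen.

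**Figure D4:**
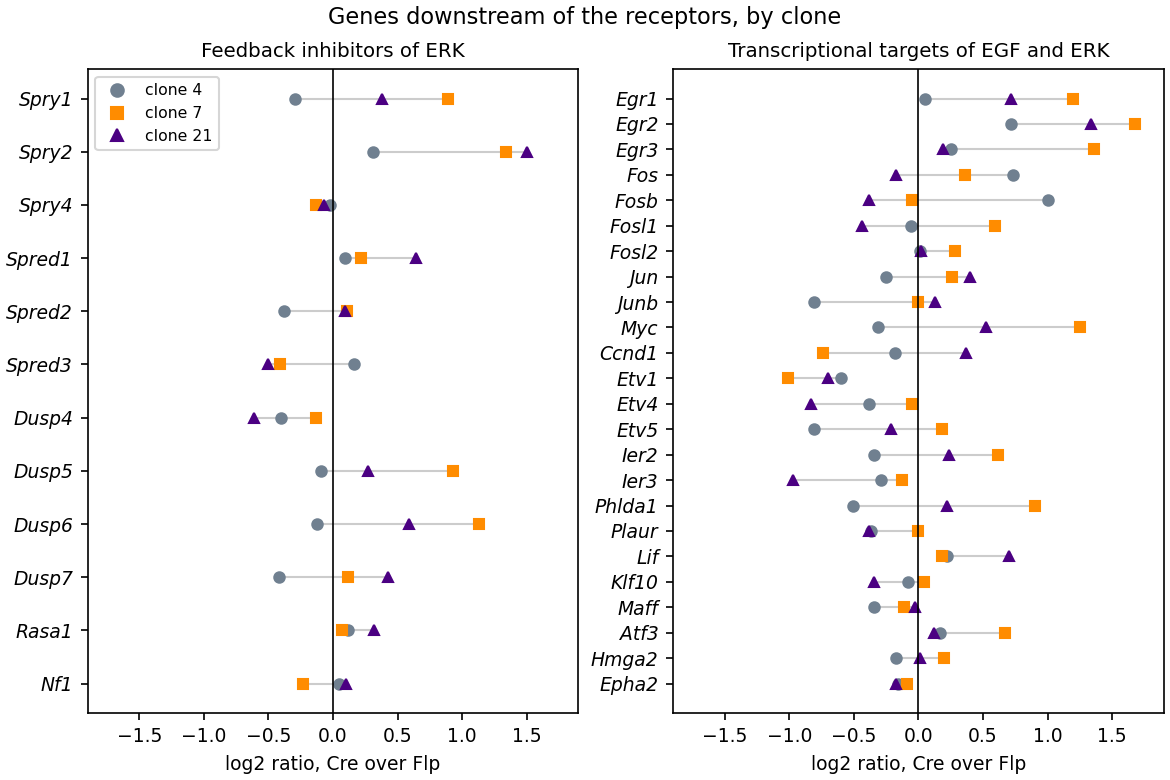
Log2 ratio of Cre over Flp in each clone for the 12 tested feedback inhibitors of ERK (left) and the 24 transcriptional targets of EGF and ERK (right). Points of 1 gene are joined by a grey line; Egr2 and Spry2 are above 0 in every clone, Dusp4, Ier3 and Etv4 below, and Dusp6 lies below 0 in clone 4 only.

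The genes whose pattern over the 6 libraries was most like that of Egfr were Abhd13, Irak1bp1 and Rnd3, with Pearson's r of 0.996, 0.994 and 0.986 in log2 CPM. Those most like Hbegf were Dnaaf5, Mmachc and Cep68, with r of 0.987, 0.986 and 0.982. Among 10742 genes compared over 6 libraries, 112 reached an r of 0.9 with Egfr and 76 with Hbegf. How often such values arise by chance was not tested. Egfr's highest library, Cre of clone 21, was only 1.21 times its lowest, so its correlations may rest largely on that library.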

How the data were processed

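RNA of 6 libraries, Cre and Flp cultures of 3 iREC clones, was analysed from the deposited files. Raw counts of 49671 Ensembl genes, with no normalization, are what the authors deposited. Builds mm10 and GRCm38 are named in the submitters' processing notes, with DESeq2 2.11.40.1 and featureCounts 1.6.0.3 as well as the aligner STAR 2.5.2b-2, the trimmer Trim Galore 0.4.3.0 and FastQC 0.67. The sources used here do not give the annotation release, strand setting or read layout. A further table from the authors holds their own comparison, with a mean normalised count (a signal over libraries), a log2 fold change with its standard error, a Wald test score and p-values. Its positive fold changes were taken to mean more in Cre: over 12823 genes, 95.6% had the sign found here. Gene models came from GENCODE release M21 (GRCm38), with an entry for 49326 identifiers, and upstream sequences from RefSeq (GRCm38.p6), which held 7 of the 10 members.

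Counts were fitted in R 4.3.3 with edgeR 4.0.16 (filterByExpr, TMM, quasi-likelihood test, clone as a block, 2 residual degrees of freedom), with Benjamini-Hochberg adjustment over 15355 genes and a threshold of 0.05. The clone term was tested in the same fit. DESeq2 1.42.0 and limma 3.58.1 (voom) were alternatives, beside other normalizations and filters, no block and leaving out each clone. Standard errors came from the F statistic. Log2 ratios per clone used a prior count of 2, and counting intervals were exact (Clopper-Pearson, 95%), covering counting error only, with a count of 0 taken to allow 3 counts. The pairing follows the series' design, which sets each clone against itself, and the Cre and Flp deviations from their group means had correlations of 0.20, 0.11 and 0.30 for clones 4, 7 and 21. Every pair of libraries differed beyond sampling noise (chi-square per gene of at least 25.0). On simulated counts of 15088 genes, edgeR recovered 14% of 1.5-fold, 48% of 2-fold and 88% of 4-fold differences between Cre and Flp with 10 false calls, and DESeq2 28%, 70% and 94% with 46 false calls, for spread as fitted only. Differences were planted only above a minimum mean level, which Areg, Ereg and Btc, at 0.282, 0.495 and 0.292 CPM, did not reach. Genes given a difference between Cre and Flp were given none between clones. These shares therefore do not apply to Areg, Ereg and Btc. Named genes were, beside those said to be named after their values were seen, the members, the gene with the smallest p and the most abundant gene of each list, and the 3 genes most like Egfr and Hbegf at a mean of at least 5 CPM. The members, lists and tests were chosen with earlier results of these data known.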

Additional observations from a re-analysis of the deposited data

Results flagged for a closer look

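Some named genes moved in opposite directions in different clones by more than counting error, which 35.9% of all tested genes did. The difference between clones in the Cre over Flp ratio was not tested, since each clone had 1 library per group. Among the members, the highest and lowest clone ratios were 1.10 apart on the log2 scale for Hbegf, 0.98 for Erbb3, 0.51 for Erbb2 and 0.24 for Egfr. Among the other named genes they were 1.16 apart for Cd9, 1.11 for Ccnd1, 0.73 for Fn1, 0.67 for Mapk3 and 0.58 for Krt18. For Hbegf and Krt18 clone 4 was the negative one, for Erbb3 clone 21, and for Cd9 both.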

How the results depend on the processing

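None of the members was called between Cre and Flp or between clones in any of the 11 alternative fits of each test. Over all genes, edgeR called 0 between Cre and Flp (1047 at an unadjusted p under 0.05), DESeq2 called 195 and edgeR without a filter 224; between clones the edgeR count of 1 became 519 without a filter, 414 with DESeq2, 0 with the stricter filter, 0 with limma-voom and 2 without the group term, and ranged from 0 to 4 when a clone was left out. Without the replicate block edgeR called 0 genes between Cre and Flp (716 at an unadjusted p under 0.05), and it changed no other call. Leaving out 1 clone turned the sign of some log2 fold changes, which ranged from -0.02 to 0.11 for Egfr, -0.03 to 0.22 for Erbb2, -0.46 to 0.03 for Erbb3, -0.14 to 0.39 for Egf, -0.07 to 0.47 for Hbegf (-0.06 without clone 21), -0.46 to 0.10 for Ccnd1, -0.24 to 0.09 for Mapk3 (0.01 without clone 4) and -0.11 to 0.17 for Krt18, and Krt18 also stood at -0.01 without the block. Tgfa, Ereg and Btc kept their sign in every alternative that tested them. Cldn1, the tubule and epithelial marker with the smallest p, stood at -1.47. It did not pass in edgeR with the filter (adjusted p = 0.6087). It passed with DESeq2 (adjusted p = 0.002372) and with unfiltered edgeR (0.001841). The authors' deposited table put Cldn1 at -0.88 on the log2 scale (adjusted p = 0.00401, by DESeq2). DESeq2 made 46 false calls on the simulated counts. Those counts held spread as fitted only, so they cannot show whether the Cldn1 call is false. With the longest transcript as length, the level per kilobase became 72.3 for Egfr, 0.979 for Egf, 35.9 for Hbegf and 7.47 for Tgfa, and the order of levels was the same. Depth limits Areg, Ereg and Btc, with at most 28 counts each.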
